A study of Mus musculus with 56 samples.

Results

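Autoimmune-prone inbred mouse strains were compared with other inbred strains in prefrontal cortex and nucleus accumbens. The autoimmune-prone arrays were chosen by strain label and make up 7 of the 56 arrays in all: NOD/LtJ, SJL/J and NZW/LacJ in both regions and MRL/MpJ in cortex. They were set against 42 arrays of 21 other strains profiled in both regions: C57BL/6J, DBA/2J, A/J, C3H/HeJ, FVB/NJ, 129S1/SvImJ, BALB/cByJ, SWR/J, AKR/J, PL/J, CBA/J, BTBR_T+_tf/J, KK/HlJ, SM/J, BUB/BnJ, MA/MyJ, CE/J, RIIIS/J, I/LnJ, WSB/EiJ and P/J. The 7 arrays of NZO/HILtJ, NON/LtJ, C57BR/cdJ and C58/J were left out of both sides. The RNA on an array was a pool of 3 males, aged 8 to 10 weeks and all of the same strain, and the labels name no treatment. Strains were the replicates, 4 against 21 in cortex and 3 against 21 in accumbens. With 1 pool per strain and region, differences between pools are part of the strain spread, and precision is limited by how few arrays each group holds. The labels give no disease state of the mice.

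NOD mice are the classical model of spontaneous autoimmune diabetes, and SJL mice are widely used for experimental autoimmune encephalomyelitis, an immune attack on myelin. NZW mice contribute susceptibility alleles to the lupus-like disease of New Zealand hybrids, and the MRL background is that of a lupus model line. In the brain, microglia are the resident macrophages, class I and class II molecules of the major histocompatibility complex (MHC) present antigens to T cells, complement proteins tag material for removal, and oligodendrocytes make myelin. An inbred strain is fixed for its alleles at every locus, so a comparison of strain groups carries all inherited differences between them. From general knowledge of the strains, all 4 autoimmune-prone strains are albino, as are 10 of the 21 other strains, and NOD/LtJ and SJL/J descend from Swiss mice, as do SWR/J and FVB/NJ among the others. Fits against albino strains alone and fits with Swiss descent as a covariate are given where they change a call.

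Several arrays stood apart in cell-type genes, and the values are given here as mean log2 intensity of a gene list. The MRL/MpJ cortex array was the highest of 25 cortex arrays for genes of mural cells and fibroblasts, at 8.24 against a median of 6.44 and a highest value of 7.90 in the other strains. It was also the highest for endothelial genes, at 7.67 against at most 7.36 in the other strains, and for astrocyte genes, at 9.29 against at most 9.07. Its mean of oligodendrocyte and myelin genes was the lowest of the 25 arrays, at 6.51 against 6.63 (P/J) to 8.20. That rank rests on 1 member of the list, Galc, at 2.53 in MRL/MpJ and 6.13 in P/J. In accumbens, genes of cortical excitatory neurons were highest in NOD/LtJ (5.94) and SJL/J (5.89), while NZW/LacJ (4.88) ranked 23 of 24, and the other strains had a median of 4.99. Among the other strains, spiny neuron genes were at 8.89 in the MA/MyJ cortex array against their median of 5.20, and at 7.05 in the BALB/cByJ accumbens array against their median of 9.91. Spiny neuron genes separated the labelled regions of the autoimmune-prone arrays, at 9.58 to 9.90 in accumbens and 5.08 to 5.27 in cortex. In bulk tissue, a lower share of a cell type and less RNA per cell cannot be told apart.

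The first question was how many genes separated the groups. Of 10684 features tested, 2 passed in accumbens (0.0187%), 1 higher and 1 lower in the autoimmune-prone strains (0.00936% each). In cortex 0 passed (0%), with a smallest adjusted p of 0.303 (limma, Benjamini-Hochberg). At an unadjusted p under 0.05 the counts were 409 in accumbens (3.83%) and 338 in cortex (3.16%). The difference between the regions, tested on accumbens minus cortex within each strain, passed for 0 features (0%), and 307 had an unadjusted p under 0.05 (2.87%). The median log2 difference over all features was 0.0084 in accumbens and 0.025 in cortex, with 52.5% and 59.7% of features above 0. A feature is a gene, represented by its brightest probe set, or a probe set without a single gene symbol, and a call needed an adjusted p under 0.05.

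**Figure D1:**
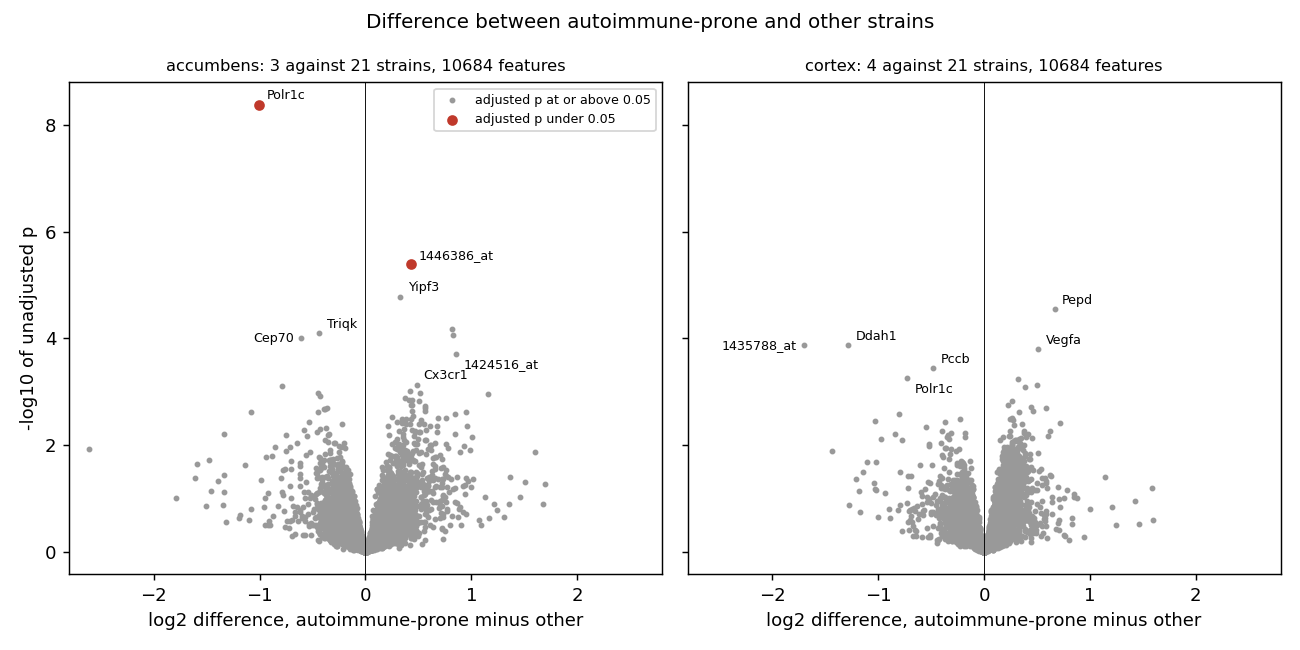
Log2 difference (autoimmune-prone minus other strains, x axis) and -log10 of the unadjusted p (y axis) of every feature in accumbens (left) and cortex (right). Red points passed the adjusted threshold: Polr1c and the probe set 1446386_at in accumbens, and no feature in cortex.

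Polr1c, which encodes a subunit shared by RNA polymerases I and III, the enzymes that make ribosomal RNA and transfer RNA, fell in accumbens of the autoimmune-prone strains. Its log2 intensity was 6.39 in NOD/LtJ, 5.91 in NZW/LacJ and 6.46 in SJL/J, against a lowest value of 6.98 (I/LnJ), a median of 7.24 and a highest of 7.60 in the 21 other strains. All 3 autoimmune-prone arrays lay below all other arrays. The log2 difference was -1.004 (95% interval -1.24 to -0.77, adjusted p 4.44e-05, limma). In cortex, Polr1c was at 6.84 in MRL/MpJ, 5.64 in NOD/LtJ, 6.42 in NZW/LacJ and 5.74 in SJL/J, against 5.89 (SWR/J), 6.91 and 7.38 as the lowest, median and highest of the other strains. NOD/LtJ and SJL/J lay below all other cortex arrays there, while MRL/MpJ was close to the other strains' median. The cortex difference of -0.73 did not pass (adjusted p 0.859), and the change of the difference between regions was -0.05 (95% interval -0.46 to 0.36). The Polr1c call held in accumbens under 16 of 17 alternatives, including albino strains alone (log2 difference -1.03, adjusted p 0.03) and Swiss descent as a covariate (-0.97, adjusted p 0.00198). It was lost with the probe sets whose ID ends in _x_at or _s_at left out (-0.41, adjusted p 0.581), where a second probe set stands for the gene in place of 1449648_s_at.

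That second probe set, 1417041_at, lay lower by less. In accumbens it was at 6.41 in NOD/LtJ, 6.19 in NZW/LacJ and 5.93 in SJL/J, against 6.27, 6.59 and 6.90 as the lowest, median and highest of the other strains. NZW/LacJ and SJL/J were below all other strains and NOD/LtJ was within their range. In the fit on every kept probe set its difference was -0.41 (SE 0.10, adjusted p 0.6), against -1.004 for the first probe set in the same fit.

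Yipf3, a membrane protein of the Golgi, is the divergent neighbour of Polr1c on chromosome 17, with 0 protein-coding genes between them in the RefSeq annotation of GRCm38.p6. The window that holds both transcription starts is shown because the 2 genes share it and had opposite differences: 134 bases, chr17:46247996-46248129 on the + strand, from RefSeq (GRCm38.p6), with the 34 bases between the annotated starts in capitals.
Polr1c and Yipf3 shared window: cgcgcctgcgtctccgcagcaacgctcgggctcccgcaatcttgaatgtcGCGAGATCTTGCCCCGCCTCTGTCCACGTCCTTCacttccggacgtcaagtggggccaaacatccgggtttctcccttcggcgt
In accumbens Yipf3 was at 6.65 in NOD/LtJ, 6.51 in NZW/LacJ and 6.43 in SJL/J, against 6.07, 6.21 and 6.38 (C57BL/6J) as the lowest, median and highest of the other strains. Again the groups did not overlap. The difference of 0.33 (95% interval 0.20 to 0.46) missed the threshold with an adjusted p of 0.0585, and it passed in 4 of 16 alternatives. In cortex Yipf3 was at 6.31 in MRL/MpJ, 6.55 in NOD/LtJ, 6.73 in NZW/LacJ and 6.75 in SJL/J, against 6.17, 6.40 and 6.77 in the other strains.

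Zfp318, a zinc finger gene, lies 5 protein-coding genes from Polr1c on the same chromosome, and 1 of its 5 kept probe sets stood apart in the same 3 strains. This probe set, 1425346_at, was not the brightest and entered the fit on every kept probe set alone. Its accumbens values were 5.40 in NOD/LtJ, 5.71 in NZW/LacJ and 5.89 in SJL/J, against 6.11, 6.40 and 6.89 as the lowest, median and highest of the other strains. The groups did not overlap, and the difference of -0.73 (SE 0.13) passed in that fit with an adjusted p of 0.0256. In cortex MRL/MpJ had 6.06, within the other strains' range, while NOD/LtJ, NZW/LacJ and SJL/J had 5.54, 5.32 and 5.18, all below the lowest other value of 5.91 (SWR/J). The other 4 Zfp318 probe sets had accumbens differences of -0.17 to 0.04, none called.

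**Figure D2:**
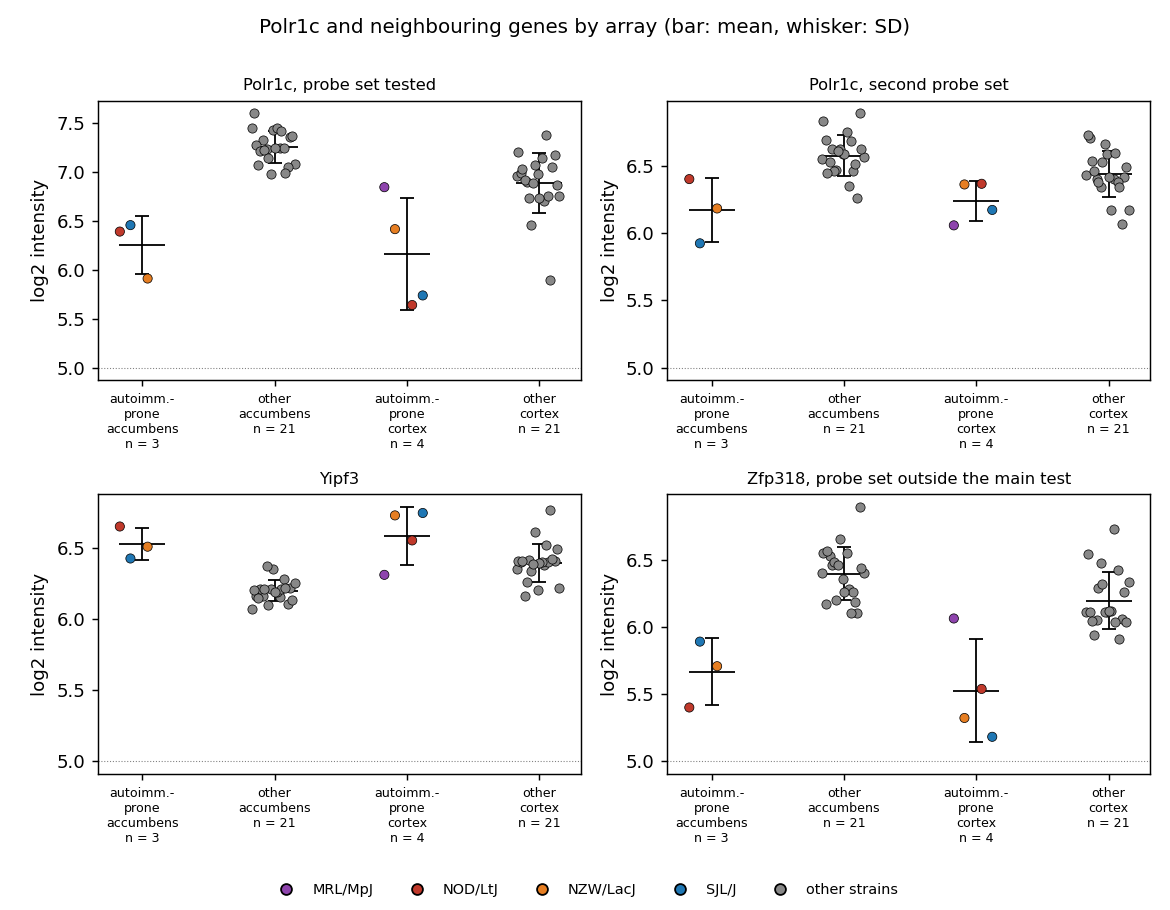
Log2 intensity of 2 Polr1c probe sets, Yipf3 and 1 Zfp318 probe set in each array, by group and region (bars are means, whiskers SD). In accumbens the 3 autoimmune-prone arrays lie outside the range of the 21 other arrays for the tested Polr1c probe set, Yipf3 and Zfp318, and in cortex MRL/MpJ (purple) lies among the other strains for those 3 but at 6.06, just below their lowest of 6.07, for the second Polr1c probe set. The dotted line marks log2 5.

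The second feature called in accumbens, 1446386_at, has no gene symbol and was dim there. It was at 3.34 in NOD/LtJ, 3.00 in NZW/LacJ and 3.49 in SJL/J, against 2.69, 2.83 and 3.02 as the lowest, median and highest of the other strains. The difference of 0.43 had an adjusted p of 0.0218, NZW/LacJ was within the range of the other strains, and every value was below log2 5, so no fold is given. In cortex the same probe set was at 5.57 to 5.98 in the autoimmune-prone arrays and 5.31 to 6.26 in the others. It passed in 7 of 16 alternatives. The call was lost with values under log2 5 raised to 5, with trend and robust variance, without MA/MyJ, BALB/cByJ, CE/J and WSB/EiJ, against albino strains, with Swiss descent, the cortical neuron list (0.38, adjusted p 0.316) or the oligodendrocyte list as a covariate, and without NOD/LtJ or SJL/J.

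Counted without a test, 7 features of 10684 (0.0655%) had no overlap between the groups in accumbens, and 0 (0%) had none in cortex. In accumbens 2 lay higher (0.0187%), Yipf3 and Secisbp2l, and 5 lay lower (0.0468%), Polr1c, Adsl, Thap4, Psmf1 and Triqk. Adsl, an enzyme of purine synthesis, was at 5.30 in NOD/LtJ, 5.15 in NZW/LacJ and 5.14 in SJL/J, against 5.35 to 6.32 in the other strains (difference -0.45, adjusted p 0.83). Psmf1, a proteasome inhibitor, had 6.02, 5.87 and 6.18 in the same order, against 6.20 to 7.51 (difference -0.53, adjusted p 0.885). Both gaps to the nearest other strain were smaller than the other strains' SD. Triqk was at 6.29, 6.47 and 6.38, against 6.47 to 7.06 (difference -0.44, adjusted p 0.153). Cep70, a centrosomal protein gene, was at 5.89, 5.80 and 6.14, against 6.06 to 6.97, and overlapped with the other strains (difference -0.61, adjusted p 0.153). In cortex the Triqk, Adsl and Thap4 values of the autoimmune-prone arrays lay within the range of the other strains.

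In cortex the 5 named genes with the smallest p were Pepd, Ddah1, Vegfa, Pccb and Polr1c, none of which passed. Pepd, a dipeptidase needed for collagen turnover, was at 5.97 in MRL/MpJ, 5.92 in NOD/LtJ, 6.12 in NZW/LacJ and 5.86 in SJL/J, against 4.89, 5.29 and 5.97 (129S1/SvImJ) as the lowest, median and highest of the other strains. The 4 strains were thus all near the top of the other strains' range. The difference of 0.67 (95% interval 0.40 to 0.94) had an adjusted p of 0.303 and passed against albino strains alone (0.76, adjusted p 0.0263) and with the oligodendrocyte list as a covariate (0.76, adjusted p 0.0277). In accumbens Pepd differed by 0.22 (95% interval -0.20 to 0.64).

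Vegfa, the main growth factor of blood vessels, lay higher by a similar amount in both regions. In accumbens it was at 7.21 in NOD/LtJ, 7.33 in NZW/LacJ and 7.42 in SJL/J, against 6.45, 6.74 and 7.55 (SM/J) in the other strains. In cortex it was at 7.17 in MRL/MpJ, 6.75 in NOD/LtJ, 6.87 in NZW/LacJ and 7.03 in SJL/J, against 6.04, 6.40 and 6.86 (WSB/EiJ). The differences were 0.52 in accumbens (adjusted p 0.885) and 0.51 in cortex (adjusted p 0.421), and 1 or more other strains overlapped with the group in each region. Pccb, a subunit of propionyl-CoA carboxylase, differed by -0.48 in cortex (adjusted p 0.765) and passed without NOD/LtJ, which at 6.78 lay above the other strains' median of 6.64.

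Immune genes were then read list by list, each beside the counts over all features. Over 20 lists, 0 tested members were called in cortex and 0 in accumbens, against 0% and 0.0187% of all features. Many immune genes on the array were too dim to be tested. Of those on the array, 8 of 21 genes of class I presentation, 3 of 12 of class II, 2 of 24 lymphocyte genes, 6 of 44 interferon-stimulated genes, 7 of 28 cytokines and chemokines and 3 of 23 genes of innate sensing entered the tests. Of the lymphocyte genes tested, Thy1 is also a neuronal gene, and Ighm was close to the dim limit, at 5.06 to 5.20 in autoimmune-prone cortex and 5.10 to 5.45 in the others. All 22 lymphocyte genes on the array that were not tested stayed below log2 5 in every cortex array compared, and 21 of them in every accumbens array.

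Class I genes had a median difference of -0.04 in accumbens (3 of 8 above 0) and 0.01 in cortex (4 of 8 above 0), and the sign of both medians changed with the processing. B2m, the light chain of class I molecules, was at 8.64 in NOD/LtJ, 9.02 in NZW/LacJ and 8.56 in SJL/J in accumbens, against 7.96, 8.64 and 9.21 in the other strains. In cortex it was at 9.53 in MRL/MpJ, 8.83 in NOD/LtJ, 9.16 in NZW/LacJ and 9.07 in SJL/J, against 8.31, 8.82 and 9.50 (BUB/BnJ). MRL/MpJ was the highest of the cortex arrays and the other autoimmune-prone strains were within the range; the group difference of 0.33 had an adjusted p of 1. Calr, a chaperone of class I assembly, differed by 0.28 in accumbens (unadjusted p 0.011, adjusted p 1). The heavy chain genes H2-K1 and H2-D1 are near-identical copies that vary by haplotype, and their tested probe sets end in _x_at, so their values are uncertain. The tested H2-D1 probe set ran from 3.74 (MRL/MpJ) to 6.98 (NZW/LacJ) among the autoimmune-prone cortex arrays, and from 3.70 to 9.00 in the others, a spread far larger than the group difference of -0.59.

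The 3 class II genes tested, 3 of 3 above 0 in cortex with a median of 0.07 and 1 of 3 in accumbens with a median of -0.09, are described here beside dim ones that were not tested. Cd74, the invariant chain that class II molecules need for assembly, was at 6.65 in MRL/MpJ cortex, and at 3.41 in NOD/LtJ, 3.42 in NZW/LacJ and 3.51 in SJL/J, against 3.21, 3.43 and 5.87 (BTBR_T+_tf/J) in the other strains. The 3 low values are below log2 5, as is the other strains' median. The class II chain genes H2-Aa (1435290_x_at), H2-Ab1 and H2-Eb1 were at 4.64, 4.51 and 4.18 in MRL/MpJ cortex. Those of the other autoimmune-prone cortex arrays were between 2.23 and 3.03. BTBR_T+_tf/J cortex was higher than MRL/MpJ for H2-Aa (5.50) and H2-Eb1 (4.28), while the other strains' highest for H2-Ab1 was 3.83 (BALB/cByJ). All these chain values of the autoimmune-prone arrays are below log2 5. Of the other H2-Aa probe sets, 1438858_x_at was at 4.38 in MRL/MpJ cortex, against a median of 3.00 and a highest of 5.03 (BTBR_T+_tf/J) in the other strains. For 1452431_s_at MRL/MpJ was at 3.28, against at most 2.21 in the other strains. The H2-Aa probe set 1443783_x_at and the H2-Ab1 probe sets 1425477_x_at and 1451721_a_at did not set MRL/MpJ apart, at 2.79, 2.12 and 1.98. In accumbens, where MRL/MpJ was not profiled, Cd74 was at 2.77 to 2.79 in the 3 autoimmune-prone arrays and 2.77 to 3.51 in the others. The MRL/MpJ and BTBR_T+_tf/J cortex arrays that were high in Cd74 were also the highest 2 for mural and fibroblast genes, at 8.24 and 7.90, and among the highest 3 for choroid plexus and meningeal genes, at 7.45 and 7.10. The part of those cell types in the Cd74 values was not tested. H2-DMa, which loads peptides onto class II molecules, was at 5.72 in NZW/LacJ cortex, above the other strains' highest of 5.20 (PL/J), and at 4.33, 4.78 and 4.75 in MRL/MpJ, NOD/LtJ and SJL/J (group difference 0.42, adjusted p 1).

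**Figure D3:**
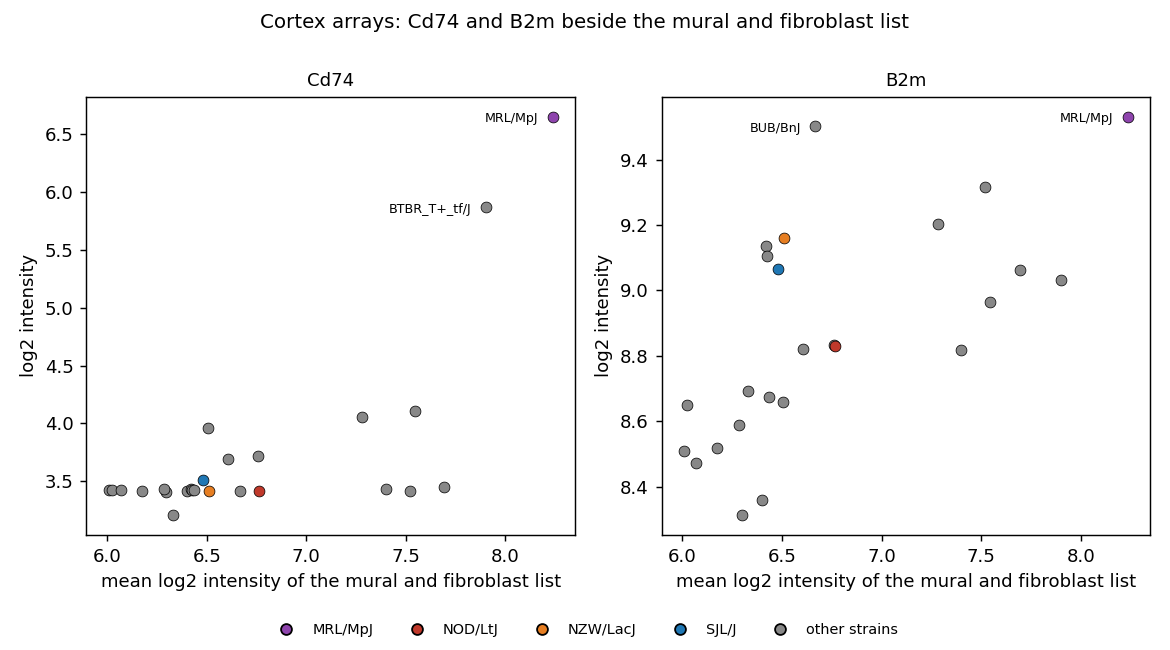
Log2 intensity of Cd74 (left) and B2m (right) in each of the 25 cortex arrays (y axis) against the mean log2 intensity of the 8 mural and fibroblast genes tested (x axis). MRL/MpJ (purple) has the highest value on every axis, and BTBR_T+_tf/J is next to it for Cd74.

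The microglial list mean in accumbens was above the other strains' median in NOD/LtJ and NZW/LacJ and close to it in SJL/J. It was 6.66 in NOD/LtJ, 6.50 in NZW/LacJ and 6.32 in SJL/J, against 6.05, 6.32 and 6.81 (BTBR_T+_tf/J) as the lowest, median and highest of the other strains. Of 17 tested, 13 were above 0 with a median of 0.17 in accumbens, and 10 were above 0 with a median of 0.07 in cortex, against medians of 0.0084 and 0.025 over all features. Cx3cr1, the fractalkine receptor of microglia, was at 8.04 in NOD/LtJ, 7.95 in NZW/LacJ and 7.50 in SJL/J in accumbens, against 6.93, 7.35 and 7.70 (SWR/J) in the other strains. NOD/LtJ and NZW/LacJ lay above all other strains and SJL/J within them (difference 0.48, 95% interval 0.23 to 0.74, adjusted p 0.83). In cortex the Cx3cr1 difference was 0.10, and the change between regions was 0.26 (95% interval -0.05 to 0.58). The purinergic receptor genes P2ry12 and P2ry13, markers of resting microglia, differed by 0.42 and 0.27 in accumbens and by 0.42 and 0.36 in cortex, and Fcgr3, an Fc receptor gene, by 0.56 and 0.44. Other microglial markers were nearer 0 or below it: Tmem119 differed by 0.12 and 0.04, Sall1 by 0.01 and 0.07, Aif1 by -0.11 and -0.01, and Olfml3 by -0.27 and -0.11, in accumbens and cortex in that order. The lysosomal gene Cd68, which rises in activated microglia, differed by -0.12 in accumbens and -0.01 in cortex. None of these differences passed.

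Complement, interferon and cytokine genes had smaller medians than the microglial list in accumbens, and complement and interferon genes larger ones in cortex. Complement genes had medians of 0.07 in accumbens (6 of 7 above 0) and 0.10 in cortex (5 of 7), with C1qa, C1qb and C1qc, the chains of the first component, between -0.19 and 0.32. Interferon-stimulated genes had medians of -0.04 in accumbens (2 of 6 above 0) and 0.09 in cortex (5 of 6). In accumbens the list means of the autoimmune-prone arrays were 4.82 to 4.85, below log2 5, so the median there rests partly on dim values. Ifitm3, an antiviral membrane protein also found in vessels, was at 7.05 in MRL/MpJ cortex, above the other strains' highest of 6.70 (CE/J), and at 5.59 to 5.85 in the other 3 autoimmune-prone cortex arrays. Cytokine and chemokine genes had medians of 0.06 in accumbens and -0.03 in cortex, and genes of innate sensing -0.01 and 0.01. Of genes proposed at mouse autoimmunity loci, 4 of the 25 on the array were bright enough to test: B2m, Ets1, Coro1a and Fcgr2b. Ets1, a lymphoid transcription factor, was at 5.75 in MRL/MpJ, 5.12 in NOD/LtJ, 5.50 in NZW/LacJ and 5.35 in SJL/J in cortex, against 4.56, 5.15 and 5.56 in the other strains (difference 0.33, adjusted p 1). Its accumbens difference was 0.35 (adjusted p 1) at levels below log2 5. Coro1a, an actin regulator of leukocytes, and Fcgr2b, the inhibitory Fc receptor, differed by at most 0.13 in either region.

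Oligodendrocyte and myelin genes lay on opposite sides of 0 in the 2 regions, without a call in either. In accumbens 19 of 20 lay above 0 with a median of 0.58, and 7 had an unadjusted p under 0.05, against 3.83% of all features. In cortex 17 of 20 lay below 0 with a median of -0.31, and 3 had an unadjusted p under 0.05 (1 higher, 2 lower), against 3.16% of all features. NOD/LtJ had the highest list mean of the 24 accumbens arrays at 9.04, while NZW/LacJ (8.69) and SJL/J (8.57) ranked 7 and 8, against a median of 8.27 and a highest of 8.95 in the other strains. In cortex MRL/MpJ had the lowest list mean, a rank that rests on Galc. NZW/LacJ (6.90), SJL/J (7.07) and NOD/LtJ (7.32) were within the other strains' range around 7.25. Without MRL/MpJ the cortex median was -0.16. On accumbens minus cortex, over the 3 strains profiled in both regions, the median was 0.76. Of 20 members, 11 had an unadjusted p under 0.05 (limma) against 2.87% of all features, and 0 were called. Genes of 1 cell type are not independent of each other, so these counts of members are not separate observations.

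Mobp, a myelin protein gene, was at 11.85 in NOD/LtJ, 11.33 in NZW/LacJ and 11.20 in SJL/J in accumbens, against 9.93, 10.79 and 11.74 in the other strains. In cortex it was at 7.05 in MRL/MpJ, 8.93 in NOD/LtJ, 8.57 in NZW/LacJ and 8.62 in SJL/J, against 7.99, 8.96 and 10.26. MRL/MpJ lay below every other strain, and the other 3 were within the range. Mag and Mbp, further myelin genes, differed by 0.57 and 0.19 in accumbens and by -0.53 and -0.24 in cortex. Olig2, the lineage transcription factor, lay higher in both regions, by 0.76 in accumbens (adjusted p 0.874) and 0.38 in cortex (adjusted p 1). Myelin content varied widely among the other strains too, with list means of 7.29 to 8.95 in accumbens and 6.63 to 8.20 in cortex.

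Galc, the enzyme that degrades the myelin lipid galactosylceramide, did not follow the list. In accumbens it was at 6.66 in NOD/LtJ, 2.38 in NZW/LacJ and 4.37 in SJL/J, and in cortex at 2.53 in MRL/MpJ, 6.09 in NOD/LtJ, 2.63 in NZW/LacJ and 2.51 in SJL/J. The other strains split as well, with 8 of 21 below log2 5 in accumbens and 8 of 21 in cortex. Low values occurred in both groups, and the group differences of -0.70 and -1.28 had adjusted p of 1. These values rest on 1 of 3 Galc probe sets, the others being dim on all arrays compared.

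**Figure D4:**
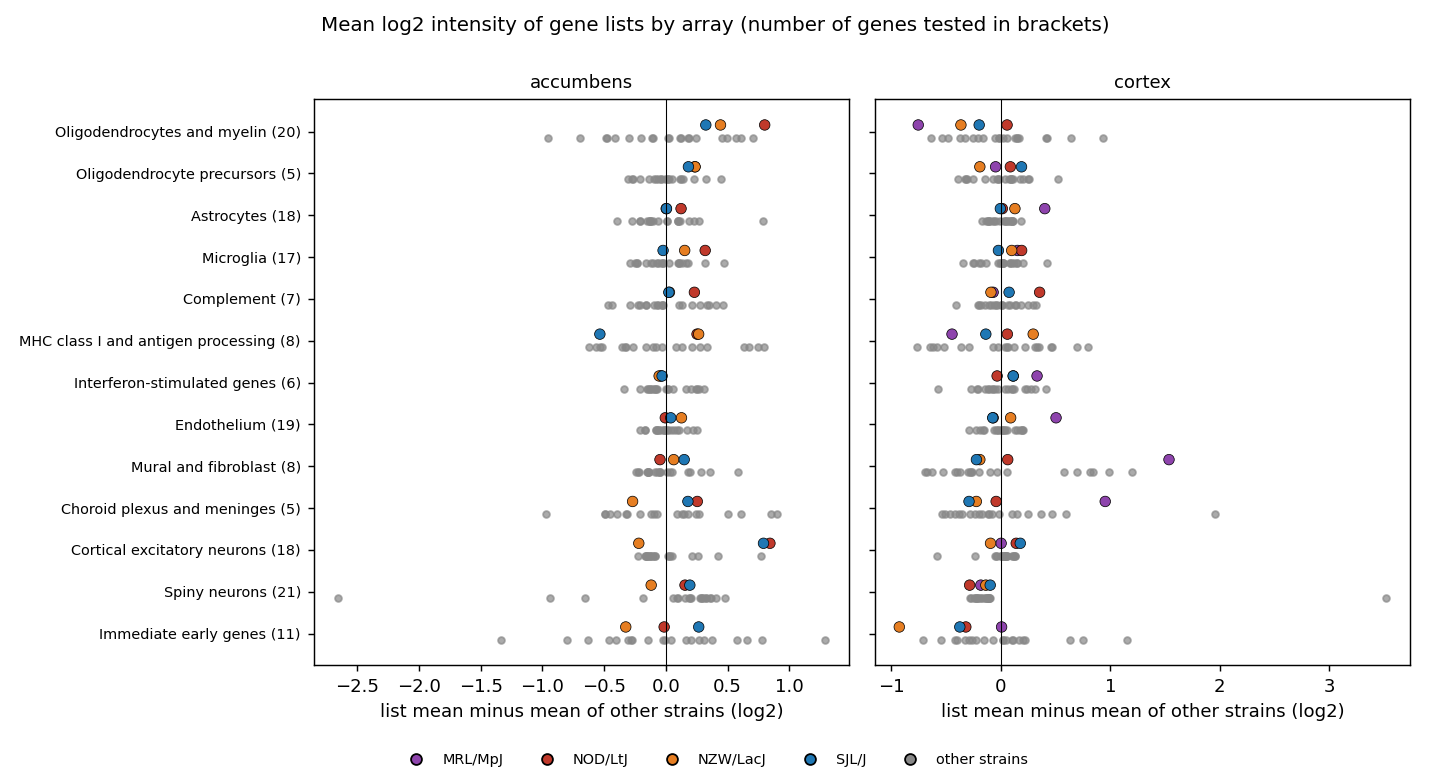
Mean log2 intensity of 13 gene lists per array, given as the difference from the mean of the other strains, in accumbens (left) and cortex (right). Coloured points above each line are autoimmune-prone arrays and grey points below are the 21 other strains. Oligodendrocyte genes lie to the right in accumbens, and MRL/MpJ stands far right for mural and fibroblast genes in cortex.

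Among other glia, astrocyte genes had a median of -0.03 in accumbens (8 of 18 above 0) and 0.12 in cortex (16 of 18 above 0). Without MRL/MpJ the cortex median was 0.05. Gfap, the intermediate filament of astrocytes, was at 7.76 in MRL/MpJ, 7.17 in NOD/LtJ, 7.40 in NZW/LacJ and 7.08 in SJL/J in cortex, against 4.58, 6.81 and 7.36 (BUB/BnJ) in the other strains. MRL/MpJ and NZW/LacJ lay above all others, and the difference of 0.63 had an adjusted p of 1. In accumbens Gfap was at 7.03 in NOD/LtJ, 4.45 in NZW/LacJ and 6.20 in SJL/J, against 3.97, 5.07 and 6.27. NOD/LtJ lay above all other strains there and NZW/LacJ below their median. Aqp4, the water channel of astrocyte endfeet, differed by 0.42 in accumbens and 0.36 in cortex, each with an adjusted p of 1. Reactive astrocyte genes had medians of -0.03 and 0.11 over 5 members, and oligodendrocyte precursor genes 0.19 and 0.13 over 5.

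Vascular genes turned on the MRL/MpJ array. In cortex 14 of 19 endothelial genes and 7 of 8 mural and fibroblast genes lay above 0, with medians of 0.13 and 0.32. Without MRL/MpJ these medians were 0.02 and -0.11. Vcam1, a leukocyte adhesion molecule of activated endothelium, was at 7.63 in MRL/MpJ, 6.51 in NOD/LtJ, 6.67 in NZW/LacJ and 6.88 in SJL/J in cortex, against 5.07, 6.59 and 7.04 (BTBR_T+_tf/J). MRL/MpJ lay above all other strains. In accumbens Vcam1 was at 7.12, 7.17 and 7.41 in NOD/LtJ, NZW/LacJ and SJL/J, against 6.25, 6.87 and 7.42, all within the range and above the median. The differences of 0.41 in accumbens and 0.46 in cortex had adjusted p of 1. Pdgfrb, the receptor that marks pericytes, was at 8.04 in MRL/MpJ cortex and 7.02 to 7.11 in the other 3, against 6.41, 7.05 and 7.75. In accumbens the endothelial median was 0.11 (11 of 19 above 0) and the mural median 0.09 (5 of 8). Choroid plexus and meningeal genes had medians of -0.07 in accumbens and 0.14 in cortex, where the value without MRL/MpJ was -0.13. All 6 blood cell genes on the array were below log2 5 throughout.

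Neuronal lists were read as a check of the dissections. Cortical excitatory neuron genes in accumbens had a median of 0.33 with 16 of 18 above 0, and the list means of NOD/LtJ and SJL/J were the high ones. Neurod6, a transcription factor of cortical projection neurons, was at 5.53 in NOD/LtJ, 2.83 in NZW/LacJ and 4.06 in SJL/J in accumbens, against 2.84, 2.89 and 4.46 (BUB/BnJ), and it passed without NZW/LacJ (adjusted p 0.00951). With the list mean as a covariate, the Polr1c difference in accumbens was -1.10 (adjusted p 7.88e-05) and the myelin median 0.61. Apart from the fits with this list as a covariate, the part of cortical tissue in the NOD/LtJ and SJL/J accumbens results was not tested. Immediate early genes lay below 0 for 11 of 11 members in cortex with a median of -0.33, and the lowest array was NZW/LacJ at 7.17 against 7.39 to 9.25 in the other strains. Without NZW/LacJ the median was -0.15. In accumbens their median was 0.01. Spiny neuron genes had medians of 0.10 in accumbens and -0.17 in cortex, where the median was -0.01 without MA/MyJ, BALB/cByJ, CE/J and WSB/EiJ.

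A further question was whether single strains carried large differences of their own. With a gap of at least 1 log2 unit beyond all 21 other strains, in both regions where both were profiled, NOD/LtJ had 1 feature, NZW/LacJ 4, SJL/J 1 and MRL/MpJ, in cortex alone, 5. Counted on equal terms, each strain against all the others compared, NOD/LtJ, NZW/LacJ and SJL/J had 1, 4 and 1, and the 21 other strains had 0 to 12 with a median of 3. In cortex alone MRL/MpJ had 3 on those terms, against a median of 6 in the other strains. These features were chosen by the gap, so their values are a description.

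Crym, which encodes a thyroid hormone-binding protein abundant in striatum, was at 5.66 in NOD/LtJ accumbens and at 11.29 and 10.93 in NZW/LacJ and SJL/J, against 7.56, 10.72 and 11.48 in the other strains. In cortex NOD/LtJ had 3.68, and MRL/MpJ, NZW/LacJ and SJL/J had 7.77, 9.08 and 8.62, against 7.78, 8.44 and 9.52. NOD/LtJ was far below all strains in each region, 33.5-fold below the other strains' median in accumbens and at least 10.8-fold in cortex, where its value was under log2 5. Crym has 1 probe set on the array. Of the next largest NOD/LtJ gaps, Slc18b1, a vesicular polyamine transporter, and Gclm, a subunit of the enzyme that limits glutathione synthesis, were also low. NOD/LtJ had 5.58 and 6.52 for them in accumbens, against lowest values of 6.37 and 7.01 in the other strains.

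NZW/LacJ was low for Ddah1, Sh3rf1, 1110051M20Rik and the unnamed probe set 1435788_at. Ddah1, which degrades an endogenous inhibitor of nitric oxide synthases, was at 6.38 in NZW/LacJ accumbens and 8.79 and 8.87 in NOD/LtJ and SJL/J, against 8.18, 8.68 and 9.35. Of the strains left out of both sides, C58/J (7.371) and C57BR/cdJ (7.856) were below that range in accumbens by less, and NON/LtJ (8.788) was within it. In cortex Ddah1 was at 6.20 in MRL/MpJ and 6.06 in NZW/LacJ, and at 8.03 and 8.66 in NOD/LtJ and SJL/J, against 7.81, 8.60 and 8.92. The 2 low strains made up the group difference of -1.28 in cortex (adjusted p 0.421), which passed without SJL/J (-1.76, adjusted p 0.00481). The low values came from 1 probe set, 1429298_at. Another, 1455400_at, was at 7.70 in MRL/MpJ and 6.90 in NZW/LacJ cortex, against 6.28 to 7.47 in the other strains. For 1454995_at MRL/MpJ and NZW/LacJ were at 6.41 and 6.47 in cortex. Both were below the other strains' median of 6.80 and within their range of 5.94 to 7.13.

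The same 2 strains were low for 1435788_at, at 4.11 in MRL/MpJ and 5.35 in NZW/LacJ cortex against 7.02 to 8.40 in the other strains, and it passed in cortex without NOD/LtJ (adjusted p 0.0112). Sh3rf1, a scaffold of stress kinase signalling, was low on its tested probe set in NZW/LacJ alone among the autoimmune-prone strains. It had 3.72 in accumbens against 5.28 to 6.13 in the other strains, and 3.76 in cortex against 6.38 to 7.34. These values rest on 1 of 5 Sh3rf1 probe sets. Another, 1445178_at, was not low in NZW/LacJ. In accumbens it was at 4.86, against 3.19 to 4.61 in the other strains, all below log2 5. In cortex it was at 4.91, against 3.37 to 6.01. The rest stayed below log2 5 on every array. The transcript 1110051M20Rik was at 6.14 in NZW/LacJ accumbens and 8.04 and 7.74 in NOD/LtJ and SJL/J, against 7.73 to 8.56. Of the strains left out of both sides, C58/J (6.296) and C57BR/cdJ (7.232) were also below that range, and NON/LtJ (8.122) was within it. In cortex NZW/LacJ (5.793) and C58/J (6.808) were below the other strains' lowest of 7.218. C57BR/cdJ, NON/LtJ and NZO/HILtJ were within the range there. Low values were thus not particular to NZW/LacJ.

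SJL/J lay lowest for the unnamed probe set 1449972_s_at, at 4.50 in accumbens against 6.46 to 8.53 and at 4.27 in cortex against 5.30 to 6.97. Aph1b, a gamma-secretase subunit, was at 5.30 in SJL/J accumbens against 5.58 (FVB/NJ), 7.25 and 7.53, and at 4.03 in cortex against 4.37 (FVB/NJ), 6.72 and 7.26. The nearest strain to SJL/J for Aph1b was in both regions FVB/NJ, also of Swiss descent. NOD/LtJ, likewise Swiss-derived, was at 7.19 in accumbens and 6.79 in cortex, near the other strains' medians. The part of descent in the Aph1b values was not tested. A pair of unnamed probe sets with adjacent IDs, 1424515_at and 1424516_at, was high in NZW/LacJ and SJL/J. In accumbens 1424515_at was at 6.98 and 7.04 in these strains and 5.90 in NOD/LtJ, against 5.39, 5.81 and 6.38. Both probe sets passed there without NOD/LtJ (limma, adjusted p 0.00105 and 0.00197). NON/LtJ, left out of both sides, was high as well, at 6.85 for 1424515_at and 8.40 for 1424516_at in accumbens. In MRL/MpJ cortex the largest gap upward was Pam, an enzyme that amidates neuropeptides, at 7.87 against at most 6.78, and Trio, a guanine nucleotide exchange factor, was low at 7.51 against at least 8.53.

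**Figure D5:**
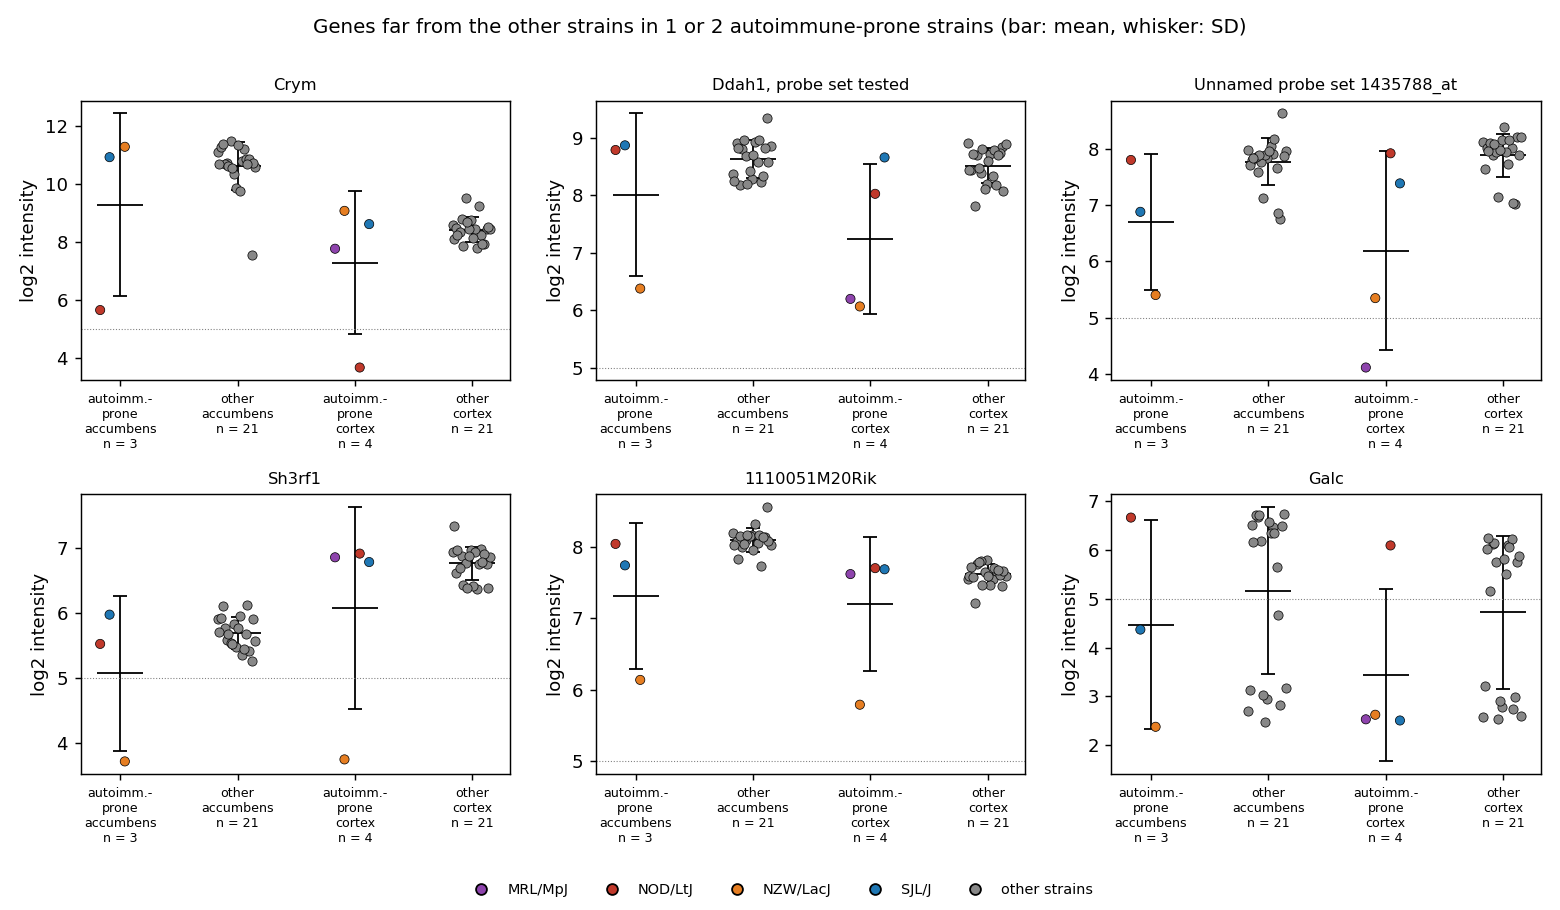
Log2 intensity in each array of 6 features that lay far from most other strains in 1 or more autoimmune-prone strains, by group and region (bars are means, whiskers SD, dotted line log2 5). Crym is low in NOD/LtJ (red), Sh3rf1 and 1110051M20Rik in NZW/LacJ (orange), and Ddah1 and 1435788_at in NZW/LacJ and MRL/MpJ (purple), while Galc splits both groups.

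Likeness between strains was described over all features. With each feature centred on the mean of the arrays compared, the correlation across 10684 features between pairs of autoimmune-prone arrays ran from -0.23 to 0.10 in accumbens (3 pairs, median -0.06) and from -0.17 to 0.07 in cortex (6 pairs, median -0.08). Pairs of an autoimmune-prone and another strain had medians of -0.04 in accumbens and -0.04 in cortex. In accumbens the closest other strain was BUB/BnJ to NOD/LtJ (0.17), SM/J to NZW/LacJ (0.16) and SM/J to SJL/J (0.21). In cortex it was AKR/J to MRL/MpJ (0.17), A/J to NOD/LtJ (0.16), DBA/2J to NZW/LacJ (0.11) and SWR/J to SJL/J (0.24). Of the Swiss-derived pair, SJL/J was thus closest to a Swiss relative in cortex but not in accumbens, and NOD/LtJ in neither region. These correlations are across genes, which are not independent replicates, and arrays of a region share their normalization.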

How the data were processed

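RNA from prefrontal cortex and nucleus accumbens was labelled with biotin and hybridised to 1-colour Affymetrix arrays, 1 array per strain and region, per the labels' protocols. The deposited values are linear intensities, for which the submitters' processing notes name GCRMA, a background correction and normalization method that uses probe sequence. The GCRMA version is not stated by the labels. The column medians overlapped between regions (intensity 9.94 to 10.4 in cortex and 9.66 to 10.1 in accumbens). Each region was analysed alone, as the comparison was set within regions. Levels were compared between regions only as a difference of differences and, without a test, for the spiny neuron list means.

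The deposited intensity was turned into log2. Of 45015 probe sets, 64 controls were removed. GEO's platform annotation gives 1 gene symbol for 34880 probe sets, several for 923 and none for 9148, and a probe set without a single symbol was kept under its ID. Features were kept if above log2 5 on at least 13 of the 54 arrays of strains profiled in both regions, with the brightest kept probe set per gene, which left 10684. Groups were compared by limma's moderated linear model, two-sided (limma 3.58.1, R 4.3.3), with Benjamini-Hochberg adjustment over all features and a threshold of 0.05. The comparison between regions used accumbens minus cortex of each strain, so strain was the pair. The fit was tested on simulated data. Tables and plots were made with Python 3.11.15 and matplotlib 3.10.9.

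Members and gene lists were chosen with earlier results of these data known. Named genes are those past the threshold, the 5 with the smallest p in each region, 2 per list with the smallest p in cortex, the largest gaps of each strain and the genes proposed at autoimmunity loci. Other list members, other probe sets of named genes, Neurod6, Zfp318, Galc, Cd74 and the class II chain genes were named after their values were seen. Alternatives covered filters, a floor at log2 5, renormalization, probe set choice, variance options, the strains compared, covariates and each autoimmune-prone strain left out.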

Additional observations from a re-analysis of the deposited data

Results flagged for a closer look

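In groups of 4 arrays, the value farthest from the rest stood apart by Dixon's criterion for 17 of 99 values tested, all in cortex. Chance gives about 1 in 20 for values picked without regard to their spread, but many of these features were named because 1 strain lay far from the rest or after their values were seen, so the count cannot be set against that rate. In MRL/MpJ, Cd74 (6.654), H2-Ab1 (4.505), Pdgfrb (8.042) and the mean of the mural and fibroblast list (8.239) were high, Rela (6.123), a subunit of the transcription factor NF-kappaB, was away from the other arrays of the group as well, and Trio (7.51) was low. SJL/J stood apart for 1449972_s_at (4.265), Aph1b (4.033), Ighm (5.058), Pantr1 (10.096) and Synj2bp (7.654). NZW/LacJ stood apart for 1110051M20Rik (5.793), Sh3rf1 (3.755) and the mean of the innate sensing list (6.99). NOD/LtJ stood apart for Galc (6.089), Slc18b1 (4.867) and Triqk (6.125). All values are log2 intensities. The 3 autoimmune-prone accumbens arrays were too few for this criterion.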

How the results depend on the processing

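In accumbens the 2 calls became 7 with no filter on dim probe sets, and 1 with a filter at log2 7, without _x_at and _s_at probe sets, with trend and robust variance, without MA/MyJ, BALB/cByJ, CE/J and WSB/EiJ, against albino strains, and with Swiss descent, the cortical neuron list or the oligodendrocyte list as a covariate. They became 3 with each array centred on its median, with every kept probe set, and with the strains left out of both sides counted among the others. Leaving out 1 autoimmune-prone strain gave 2 to 5 calls: 5 without NOD/LtJ, 4 without NZW/LacJ and 2 without SJL/J. In cortex the count of 0 became 1 with no filter (Efcab2), against albino strains (Pepd), with Swiss descent as a covariate (Ddah1) and with the oligodendrocyte covariate (Pepd). Leaving out 1 strain in cortex gave 0 to 2: 1 without MRL/MpJ (Them4), 2 without NOD/LtJ (1435788_at and Pccb), 0 without NZW/LacJ and 1 without SJL/J (Ddah1). The difference between regions gave 1 call with no filter (Tesk2) and 0 under the other alternatives run. Polr1c was called in accumbens in 16 of 17 alternatives, with differences of -1.11 to -0.83, and was lost without _x_at and _s_at probe sets (-0.41, adjusted p 0.581), where another probe set of the gene is tested. No called difference reversed. The cause of these changes was not tested. No paired analysis was possible because the groups hold different strains and share no pairs. A group of 3 or 4 strains, each with 1 pool, limits precision, and dim probe sets carry little signal above background.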
